A study of Homo sapiens with 18 samples.

Results

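The peaks described here are those of 3 genes, the B-cell repressors BCL6 and BACH2 and LPP, the neighbour of BCL6. A peak of open chromatin belonged to a gene when its centre lay inside the gene's RefSeq span on GRCh38, or else when that gene was the nearest protein-coding gene within 50 kb. Of 71318 peaks in the table, 75 met this rule: 10 at BCL6, 40 at LPP and 25 at BACH2. The rule uses no measured value, but the 3 genes were chosen with earlier results of these data known. BCL6 (gene ID 604) spans chr3:187721377-187745468 and is read from its higher coordinate. LPP (gene ID 4026) spans chr3:188153021-188890671, which is 737.7 kb, and BACH2 (gene ID 60468) spans chr6:89926528-90296843, also read from its higher coordinate.

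Omni-ATAC-seq, a transposase assay of open DNA, was run on Raji, an established B-cell line of Burkitt lymphoma. The series followed degradation of SMARCA4, the BRG1 motor of BAF chromatin remodelling complexes, with an auxin-inducible degron. The groups compared were cells of high and of low GFP level at 24, 48 and 72 h. All 18 samples carry the genotype Smarca4+/+ in the labels, which name no agent or dose and do not say what GFP reports, which level marks degraded SMARCA4, or whether the line is 1 clone. The 3 deposited columns of each GFP level and time differed from each other by a constant 1.78 to 1.82 times counting noise in 18 pairs, and were summed to 1 library. The 6 libraries so formed held 22908652 to 29790483 counts, with 3 libraries for each GFP level. All p-values over times therefore rest only on spread among these libraries, largely borrowed from other peaks, and this spread may be technical. Of 7 B-cell marker genes, 6 had a peak within 1 kb of a gene end. These peaks summed to 268 to 279 CPM (counts divided by library size) across GFP high libraries and 285 to 305 in GFP low. Gene-end peaks of T-cell markers, present at 3 of 6 genes with none at CD3G, CD5 and CD7, summed to 71.0 to 72.8 CPM in GFP high and 61.0 to 64.1 in GFP low. Those of myeloid markers, at 1 of 5 genes with none at CSF1R, CD14, LYZ and MPO, summed to 11.9 to 13.5 and 8.35 to 11.0 CPM. The part of these differences in the results was not tested.

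BCL6 is a zinc finger repressor that germinal centre B cells need. It recruits NCOR and BCOR corepressors to genes of DNA damage response, cell cycle arrest, activation and plasma cell differentiation, and it can bind sites at its own promoter. BACH2 is a leucine zipper repressor that pairs with small MAF proteins and, like BCL6, holds down PRDM1, the gene of the plasma cell factor BLIMP1. LPP codes for a LIM domain protein of focal adhesions. Its introns and the gene-poor interval towards BCL6 are known to hold enhancers of BCL6 in germinal centre B cells.

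The bases just before the start sites of both repressor genes lie largely under peaks that were called higher in GFP low, and they are shown because BCL6 and BACH2 are sequence-specific repressors. They come from RefSeq on GRCh38.p14 and cover the 250 bases upstream on the minus strand, chr3:187745469-187745718 for BCL6 and chr6:90296844-90297093 for BACH2. Capitals mark matches to the BCL6 motif TTCNNAGAA on either strand, of which the last one shown runs on past the start site.
BCL6 upstream of the start: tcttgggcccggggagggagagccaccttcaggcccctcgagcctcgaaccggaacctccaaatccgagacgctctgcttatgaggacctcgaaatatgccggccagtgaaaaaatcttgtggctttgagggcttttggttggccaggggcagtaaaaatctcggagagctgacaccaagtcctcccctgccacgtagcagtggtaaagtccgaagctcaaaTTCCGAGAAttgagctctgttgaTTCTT
BACH2 upstream of the start: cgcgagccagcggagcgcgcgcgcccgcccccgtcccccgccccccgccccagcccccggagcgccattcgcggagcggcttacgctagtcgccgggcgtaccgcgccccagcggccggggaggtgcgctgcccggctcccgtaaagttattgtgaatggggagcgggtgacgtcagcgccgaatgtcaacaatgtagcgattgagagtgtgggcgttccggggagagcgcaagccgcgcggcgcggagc
In the window that adds 50 bases after the start, BCL6 held this motif at 4 positions. The first base of each match lay at -28, -5, 10 and 36 from the start. The motif occurred in 4.51% of 35116 RefSeq windows of the same length, and 3 windows held it at 4 or more positions. BACH2 held no match, which says only that these letters are not in this window. Neither window held the AP-1 core TGANTCA, found in 7.71% of windows on either strand, and so neither held the MAF recognition element bound by BACH proteins, which is this core with TGC before it and was found in 0.42%. A second BCL6 window, around the start site at 187736501, held the AP-1 core at -77 and neither other motif. No peak lay over it, and the nearest peak centre was 4.53 kb away. Of 7 LPP windows, the one around the start site at 188584338 held the MAF element, with no peak over it and the nearest peak centre 2.37 kb away. These matches are descriptions of letters, not of binding.

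LPP also hosts a microRNA of germinal centre B cells, miR-28, and its 3p arm (chr3:188688834-188688855, plus strand) is shown with the seed, bases 2 to 8, in capitals, because called peaks lie beside it.
hsa-miR-28-3p: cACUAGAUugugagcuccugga

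Over times, 29 of the 75 peaks were called lower and 8 higher in GFP low than in GFP high, and 38 were not called. Calls are by the quasi-likelihood test of edgeR, with time in the model and a Benjamini-Hochberg adjusted p under 0.05 over all peaks. They amount to 38.7% lower and 10.7% higher, against 25.4% and 13.4% of all peaks. The count of higher peaks came to 2 without the 72 h pair of libraries, 5 without the 24 h pair, 4 with DESeq2 and 13 with 18 columns as replicates. Only 4 of the 75 peaks lay within 1 kb of a gene end, where lower calls were rare in the whole table (4.24% lower and 34.4% higher). Away from gene ends, 29 of 71 were lower (40.8%) and 4 higher (5.63%), against 30.5% and 8.43% of all such peaks. The median log2 change (GFP low minus GFP high) of these 71 was -0.22, against -0.05 for all such peaks. At 30 of the 75 peaks all GFP low libraries lay below all GFP high ones (25.1% of all peaks did so), and at 11 they lay above (20.8%). Away from gene ends these counts were 30 and 7 of 71, against 17224 and 8929 of all 57602 such peaks. In bulk cells, fewer cells with a site open and less opening in each cell cannot be told apart.

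The 3 genes differed in their counts. At LPP 20 of 40 peaks were lower and 1 higher, with a median log2 change of -0.36. At BACH2 6 of 25 were lower and 2 higher, with a median of -0.14. At BCL6 3 of 10 were lower and 5 higher, with a median of 0.26. Whether these shares differ between the genes was not tested. Beside them, PAX5, the commitment factor of the B lineage, had 3 of 15 peaks lower (20%) and EBF1, an early B-cell factor, 9 of 40 (22.5%), and neither had a higher one. All 75 peaks passed the low-count filter, and the lowest mean count was 72.3. Abundance went with the calls: among members away from gene ends, 15 of 31 with a mean under 10 CPM were lower (48.4%, against 30.7% of all such peaks), 12 of 28 between 10 and 20 CPM (42.9%, against 32.8%), and 2 of 12 from 20 CPM (16.7%, against 23.9%). The part of abundance in the differences between genes was not tested.

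At BCL6 itself the direction of the calls followed position. All 7 peaks in the gene or within 3 kb of it had a positive log2 change, from 0.24 to 0.69, and 5 were called higher. All 3 peaks from 24.9 to 32 kb upstream were called lower. Calls in the whole table also went with position. Within 1 kb of a gene end 34.4% of peaks were higher and 4.24% lower, and elsewhere 8.43% and 30.5%. The upstream peaks summed to 0.434, 0.415 and 0.380 of the counts of the near peaks in GFP high at 24, 48 and 72 h, and to 0.196, 0.220 and 0.201 in GFP low. These ratios do not depend on a scaling factor common to all peaks of a library, but can change with loess scaling, which varies with abundance. The GFP levels were apart at each time. The split by position was made with these values known and has no test of its own. No ratio of this kind was computed for genes outside the members.

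The peak over the BCL6 start (chr3:187745202-187745702), which also overlaps the antisense gene BCL6-AS1, held 24.6, 31.9 and 32.7 CPM in GFP high at 24, 48 and 72 h and 34.9, 34.8 and 36.8 in GFP low. All 3 GFP low values were above all GFP high values, and the gap was widest at 24 h, where the high library was lowest. This gave a log2 change of 0.26 ± 0.09 (SE, adjusted p = 0.0307 in edgeR). The call was lost with loess scaling by abundance (0.16, adjusted p = 0.143), with DESeq2 (adjusted p = 0.0791) and without the 24 h pair of libraries (0.16) or the 72 h pair (0.31). The 3 peaks in the body of the gene, 3.2 to 4.4 kb from the start, gave 0.35 ± 0.11 (adjusted p = 0.0132), 0.26 ± 0.11 (0.0656) and 0.24 ± 0.12 (0.0940), so 1 of them was called. That call, too, was lost without the 72 h pair (0.39, adjusted p = 0.0966).

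The largest rises at BCL6 lay at the other end of the gene. A peak 0.8 kb beyond the 3′ end (chr3:187720343-187720843) held 14.4, 14.7 and 17.1 CPM in GFP high and 23.7, 22 and 25.5 in GFP low. A neighbour at 1.3 kb (chr3:187719829-187720329) held 8.81, 9.08 and 11.6 CPM against 14.3, 15.1 and 18.1. The GFP levels did not overlap at either peak, and both lie in an uncharacterised long non-coding gene, LOC100131635. Their log2 changes were 0.63 ± 0.11 (edgeR adjusted p = 8.61e-05) and 0.69 ± 0.12 (6.00e-05), and both were called in every alternative fit. A peak 2.7 kb upstream of the start (chr3:187747922-187748422) stood at 17.2, 20.8 and 18.3 CPM against 22.6, 23.5 and 26.5. It rose by 0.37 ± 0.11 (edgeR adjusted p = 0.0101), a call lost without the 72 h pair (0.28).

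Farther upstream the order of the libraries turned. The peak 32 kb upstream (chr3:187777265-187777765) held 18.4, 17.5 and 19.0 CPM in GFP high and 8.74, 8.82 and 10.7 in GFP low. The high libraries were alike, and every low library was well under them. Its log2 change was -0.96 ± 0.12 (edgeR adjusted p = 1.32e-06). The peak at 24.9 kb (chr3:187770091-187770591) held 11.7, 18.1 and 16.1 CPM against 8.67, 11.3 and 10.6, a log2 change of -0.58 ± 0.12 (adjusted p = 4.65e-04). Its 24 h high library lay near the low ones, yet the groups did not overlap. Between them, the peak at 28.0 kb (chr3:187773183-187773683) held 17.2, 17.5 and 15.8 CPM against 13.3 in each low library. That fall, -0.34 ± 0.11 (edgeR adjusted p = 0.0185), was lost with DESeq2 (adjusted p = 0.0678) and without the 48 h pair (-0.31) or the 72 h pair (-0.39).

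**Figure D1:**
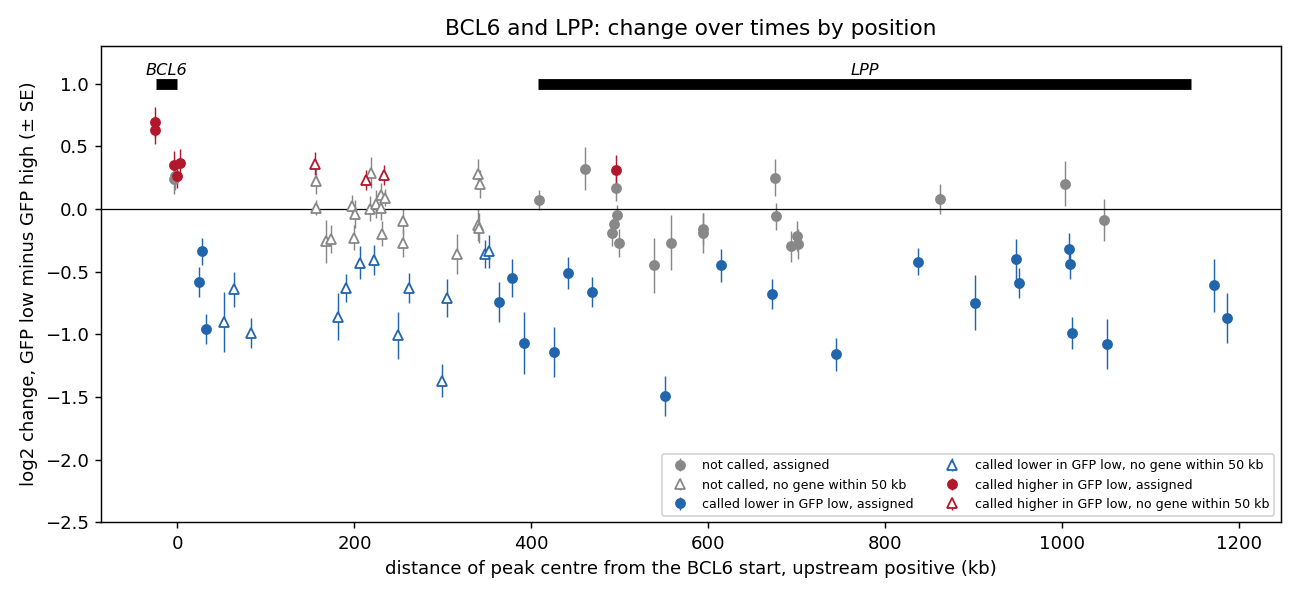
Log2 change between GFP low and GFP high over times (y axis, bars are ± SE) at each peak of BCL6 and LPP by its distance from the BCL6 start in kb (x axis), with filled circles for assigned peaks, open triangles for peaks with no gene within 50 kb and black bars for the genes. Peaks at BCL6 lie from 0.24 to 0.69, those 24.9 to 32 kb upstream lie below 0, and the lowest LPP peak lies at -1.49.

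The interval between BCL6 and LPP held 37 further peaks with no protein-coding gene within 50 kb. Of these, 13 were called lower (35.1%) and 3 higher (8.11%), with a median log2 change of -0.20, against 30.6% and 8.96% of all intergenic peaks. The peak of highest mean in it, 156.7 kb from BCL6 (chr3:187901927-187902427), held 58.3, 58.8 and 65.4 CPM in GFP high and 57.6, 58.7 and 68.1 in GFP low. The GFP levels overlapped there and the log2 change was 0.01 ± 0.06 (edgeR adjusted p = 0.877). With loess scaling it came to -0.17, with an adjusted p of 0.0386. Its neighbour 1.1 kb nearer to BCL6 (chr3:187900774-187901274) held 25.5, 35.2 and 33.5 CPM against 30.6, 42.3 and 49.3. Each GFP low library was above the high one of its time, though the groups overlapped. The log2 change was 0.36 ± 0.09 (edgeR adjusted p = 0.00244), and the call was lost without the 72 h pair (0.26). The other rises, at chr3:187978564-187979064 (0.27 ± 0.08, adjusted p = 0.0104) and at chr3:187958413-187958913 in the non-coding gene LINC01991 (0.23 ± 0.08, adjusted p = 0.0203), were lost with loess scaling (0.13 and 0.09) and without the 72 h pair (0.27 and 0.18).

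The largest fall of the interval was at chr3:188043818-188044318, 109.0 kb before LPP. That peak held 9.37, 13.5 and 15.0 CPM in GFP high and 3.51, 5.12 and 6.08 in GFP low. The values rose with time at both GFP levels and never overlapped. The log2 change was -1.37 ± 0.13 (edgeR adjusted p = 7.79e-08). A peak 83.7 kb from BCL6 (chr3:187828870-187829370) held 24.5, 32.0 and 33.1 CPM against 10.5, 14.6 and 20.9, a log2 change of -0.99 ± 0.12 (adjusted p = 8.65e-07). A weak peak at chr3:187994008-187994508 changed by -1.01 ± 0.19 (adjusted p = 2.27e-04). In the same fit, 8 of the 37 peaks were called higher at 72 h than at 24 h with both GFP levels together (0.882% of all peaks were) and 0 lower (1.87%). The peaks at 109.0 and 83.7 kb were among the 8, at 0.73 (edgeR adjusted p = 0.0131) and 0.70 (0.00713). Among the 75 members such calls were 1 higher and 1 lower.

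LPP carried most of the lower calls, while the peak at its start was not called. That peak, 1.1 kb inside the gene (chr3:188153904-188154404) and overlapping LPP-AS2, held 38.4, 40.1 and 43.0 CPM in GFP high and 42.1, 41.2 and 44.0 in GFP low. The groups overlapped, and the log2 change was 0.07 ± 0.08 (edgeR adjusted p = 0.50). Of the 35 peaks inside the gene 15 were lower (42.9%) and 1 higher (2.86%), against 30.3% and 7.98% of all gene-body peaks. All 5 outside LPP were lower, against 30.6% of all intergenic peaks. The groups overlapped at chr3:188916990-188917490 (-0.61 ± 0.21, edgeR adjusted p = 0.0284). That call was lost with loess scaling (-0.47), with DESeq2 (adjusted p = 0.129) and without the 24 h pair (-0.46) or the 48 h pair (-0.55).

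The peak of largest fall lay 143.8 kb inside LPP (chr3:188296537-188297037). It held 6.62, 8.78 and 8.52 CPM in GFP high and 2.12, 2.99 and 3.43 in GFP low, so every low library was under every high one. Its log2 change was -1.49 ± 0.16 (edgeR adjusted p = 3.08e-07). A stronger peak 336.8 kb inside (chr3:188489524-188490024) held 16.4, 17.4 and 14.2 CPM against 6.11, 7.86 and 7.54. Its log2 change was -1.16 ± 0.13 (edgeR adjusted p = 3.88e-07). Both peaks lay far from either end of the gene, and their values never overlapped between GFP levels. Weaker peaks 17.6 kb inside the start and 94.4 kb from the end had log2 changes of -1.14 ± 0.20 and -1.08 ± 0.20 (edgeR adjusted p = 1.01e-04 and 1.58e-04). They held 4.90, 5.19 and 5.70 CPM against 1.5, 2.42 and 3.40, and 4.77, 4.64 and 4.30 CPM against 2.12, 2.38 and 1.97. The peak 134.3 kb from the end (chr3:188756130-188756630) went from 10.4, 11.7 and 12 CPM to 5.05, 5.94 and 6.18, a log2 change of -0.99 ± 0.13 (adjusted p = 3.01e-06).

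Outside LPP, on the side towards BCL6, the peak 15.8 kb away (chr3:188137021-188137521) held 3.91, 3.56 and 3.78 CPM in GFP high and 1.02, 2.60 and 1.87 in GFP low. The low libraries spread widely but stayed under the high ones, and the log2 change was -1.07 ± 0.25 (edgeR adjusted p = 0.00159). The peak 44.2 kb away (chr3:188108609-188109109) held 10.4, 10.5 and 9.76 CPM against 3.80, 6.76 and 8.18. The high libraries stayed level while the low ones stood nearer to them at each later time. The change over times was -0.74 ± 0.16 (edgeR adjusted p = 9.53e-04). At single times it was -1.43 at 24 h (95% counting interval -1.87 to -0.98), -0.64 at 48 h (-0.99 to -0.29) and -0.25 at 72 h (-0.60 to 0.09). The intervals compare 1 library with 1 library and cover counting error only. The test of a change of the contrast with hours gave 1.16 ± 0.34 over 48 h (unadjusted p = 0.00171), which did not pass adjustment in edgeR (adjusted p = 0.995).

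Beside the microRNA, the peaks of LPP at chr3:188693153-188693653 and chr3:188696949-188697449, 4.6 and 8.4 kb from MIR28, were both called lower. The first held 6.06, 6.03 and 6.15 CPM in GFP high and 3.73, 5.23 and 4.92 in GFP low, a log2 change of -0.40 ± 0.16 (edgeR adjusted p = 0.0474). That call was lost with loess scaling (-0.29, adjusted p = 0.147), with DESeq2 (adjusted p = 0.191) and without the 24 h pair (-0.25) or the 72 h pair (-0.44). The farther and stronger one held 16.1, 15.5 and 16.9 CPM against 9.62, 11.3 and 11.2, a log2 change of -0.59 ± 0.12 (adjusted p = 3.18e-04). The groups overlapped at neither. Small RNA was not measured, so these values say nothing of the level of miR-28. They were picked for their place beside MIR28 after their values were seen.

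A group of 6 peaks from 83 to 92 kb inside LPP stood apart from this, though it too was singled out after its values were seen. None of the 6 was lower and 1 was higher, against 30.3% and 7.98% of all gene-body peaks, and their median log2 change was -0.08. With loess scaling 1 of them (chr3:188238920-188239420) was lower (-0.23, adjusted p = 0.0318). The peak at chr3:188244328-188244828 (-0.27 ± 0.11) was lower with library totals only (-0.29, edgeR adjusted p = 0.0449) and with 18 columns as replicates (-0.25). The one at chr3:188236154-188236654 (-0.19 ± 0.11) was lower with 18 columns (-0.17). At both, all GFP low libraries lay below all GFP high ones. The 6 include a peak at chr3:188242357-188242857 with 37.7, 41.2 and 45.3 CPM in GFP high and 38.0, 38.3 and 43.9 in GFP low, where the groups overlapped (-0.05 ± 0.08, edgeR adjusted p = 0.653). The higher peak (chr3:188240525-188241025) held 10.3, 15.9 and 14.9 CPM against 16.3, 16.1 and 18.1. The gap rested on the 24 h high library, and the call (0.31 ± 0.12, edgeR adjusted p = 0.0473) was lost without the 24 h pair (0.16) and without the 72 h pair (0.33). The peak next to it (chr3:188241052-188241552) held 12.5, 14.3 and 17.4 CPM against 14.0, 15.4 and 20.3. It was the member called higher at 72 h than at 24 h, by 0.51 ± 0.14 with both GFP levels together (edgeR adjusted p = 0.0405).

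BACH2 showed smaller changes, and they differed with distance from its start. Calls in the whole table also differed by position: 34.4% of gene-end peaks and 8.43% of others were higher, and 4.24% and 30.5% lower. The start peak of BACH2 (chr6:90296653-90297153) was the strongest of the gene and held 63.3, 66.0 and 62.5 CPM in GFP high and 78.6, 70.6 and 72.5 in GFP low. The groups did not overlap, and the log2 change was 0.21 ± 0.06 (edgeR adjusted p = 0.0120). It came to 0.02 with loess scaling (adjusted p = 0.853), and the call was also lost with DESeq2 (adjusted p = 0.0762) and without the 72 h pair (0.20). The peak 0.7 kb inside the gene (chr6:90295916-90296416) held 22.4, 21.5 and 20 CPM against 30.8, 23.8 and 23.5. Its change was 0.28 ± 0.10 (edgeR adjusted p = 0.0378), with calls lost under loess scaling (0.23), DESeq2, and without the 24 h pair (0.20) or the 72 h pair (0.30). Of the 9 peaks within 12 kb of the start, a range set after the values were seen, these 2 were higher and 0 lower. With loess scaling 0 of the 9 were higher and 2 lower, namely the peak 11.0 kb inside and one 7.7 kb upstream (chr6:90304250-90304750, -0.29, adjusted p = 0.00458). The strong peak 11.0 kb inside (chr6:90285563-90286063) held 68.0, 58.0 and 58.3 CPM against 66.5, 63.2 and 53.5, a log2 change of -0.01 ± 0.07 (edgeR adjusted p = 0.918), or -0.19 with loess scaling (adjusted p = 0.0280).

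Of the 18 peaks inside BACH2, 4 were called lower (22.2%, against 30.3% of all gene-body peaks). All 4 lay deeper in the gene. Away from gene ends, 6 of the 23 BACH2 peaks were lower (26.1%) and 0 higher, against 30.5% and 8.43% of all such peaks. The strongest of the 4 deeper peaks, 80.4 kb from the start (chr6:90216162-90216662), held 33.8, 29.3 and 29.5 CPM in GFP high and 20.2, 24.9 and 18.6 in GFP low. The 48 h libraries were the closest pair, and the log2 change was -0.54 ± 0.11 (edgeR adjusted p = 4.16e-04). The peak of largest fall (chr6:90107869-90108369) held 6.45, 4.24 and 4.22 CPM against 3.44, 2.45 and 2.21, a log2 change of -0.88 ± 0.18 (adjusted p = 6.34e-04). The peak at chr6:90083772-90084272 held 16.9, 12.1 and 10 CPM against 9.40, 7.75 and 8.25, a change of -0.60 ± 0.13 (adjusted p = 8.00e-04). At 45.2 kb (chr6:90251419-90251919) the values were 8.47, 8.85 and 8.52 CPM against 5.01, 5.72 and 7.03, a change of -0.55 ± 0.14 (adjusted p = 0.00355). The groups overlapped at none of the 4. Peaks inside BACH2 over 30 kb from its ends summed to 1.16, 1.01 and 1.03 of the gene-end peaks in GFP high and 0.605, 0.754 and 0.727 in GFP low. The 30 kb limit was not set in advance, and this split has no test of its own. This ratio can change with loess scaling, where neither gene-end peak was called (0.02 and 0.23). It, too, was not computed for genes outside the members.

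Upstream of BACH2 a strong peak 18.7 kb from the start (chr6:90315303-90315803) held 50.9, 58.8 and 54.9 CPM in GFP high and 40.3, 46.9 and 47.6 in GFP low. No values overlapped, and it fell by 0.29 ± 0.07 on the log2 scale (edgeR adjusted p = 0.00309). The neighbouring peak at 17.9 kb (chr6:90314456-90314956), 1.9 kb from the microRNA gene MIR4464, held 16.3, 14.9 and 19.9 CPM against 15.1, 11.6 and 14.3. Here the groups overlapped. The call (-0.32 ± 0.12, edgeR adjusted p = 0.0318) was lost with loess scaling and DESeq2, and without the 48 h pair (-0.30) or the 72 h pair (-0.24). The remaining 4 upstream peaks, 1.2 to 14.9 kb away, were not called, at -0.18 to -0.08. The BACH2 member called lower at 72 h than at 24 h lay 12 kb inside (chr6:90284628-90285128), with 18.7, 13.5 and 14.4 CPM in GFP high and 22.2, 18.2 and 13.6 in GFP low. Its change with time was -0.55 ± 0.14 (edgeR adjusted p = 0.0386).

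**Figure D2:**
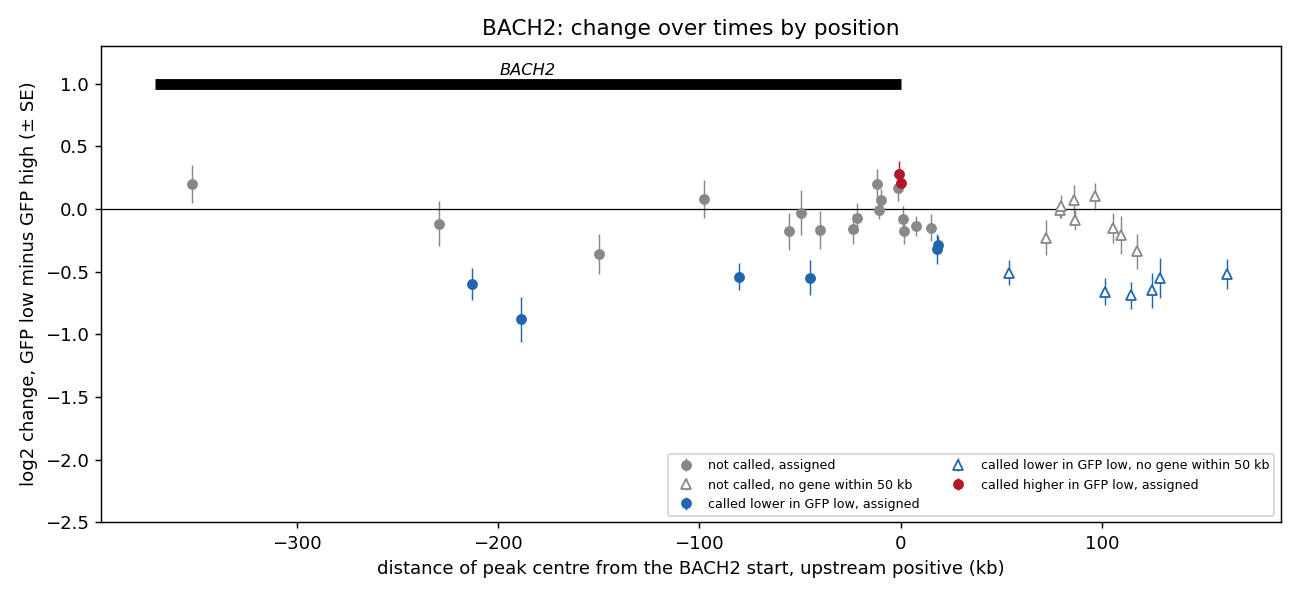
Log2 change between GFP low and GFP high over times (y axis, bars are ± SE) at each BACH2 peak by its distance from the BACH2 start in kb (x axis, upstream positive), with filled circles for assigned peaks, open triangles for peaks beyond the 50 kb limit and a black bar for the gene. The start peak lies at 0.21 and the lowest peak, deep in the gene, at -0.88.

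**Figure D3:**
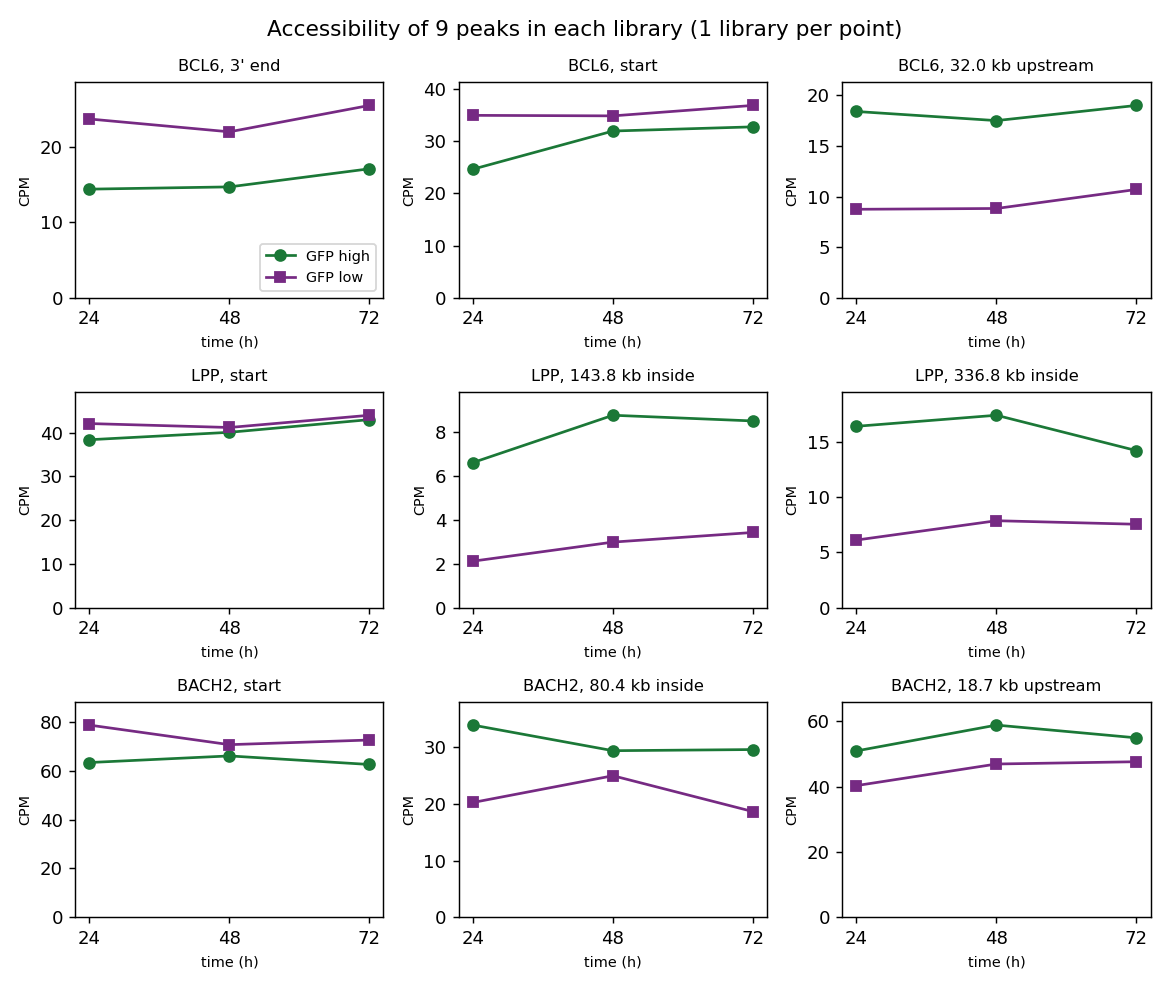
CPM (y axis, from 0) of 9 named peaks at 24, 48 and 72 h (x axis), with circles for GFP high and squares for GFP low, 1 library per point and no error bars. The GFP low line lies below at the BCL6 peak 32 kb upstream and at both inner LPP peaks at each time, and above at the BCL6 3′ end and the start peaks of all 3 genes.

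At single times, with 1 library per GFP level and so no test, 9 of the 75 peaks were at least 2-fold lower in GFP low at 24 h (12%, against 8.16% of all peaks). At 48 h 5 were (6.67%, against 3.85%) and at 72 h 2 were (2.67%, against 3.83%). Away from gene ends the shares were 12.7%, 7.04% and 2.82%, against 9.93%, 4.67% and 4.66% of all such peaks. None of the 75 was at least 2-fold higher at 24, 48 or 72 h, where 0.212%, 0.226% and 0.0911% of all peaks were. LPP held 8, 5 and 2 of these falls, BCL6 1 at 24 h and BACH2 0. The median log2 difference of LPP peaks was -0.43, -0.43 and -0.19 at 24, 48 and 72 h. That of BACH2 peaks was -0.22, -0.08 and -0.08, and that of BCL6 peaks 0.44, 0.12 and 0.26. All peaks away from gene ends had -0.10, -0.06 and -0.08. A change of the contrast with hours was called by edgeR at 0 members and at 0 of all peaks (0%). At an unadjusted p under 0.05 it was found at 2 members, both of LPP, and at 4.69% of all peaks. DESeq2 was not run for that change.

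**Figure D4:**
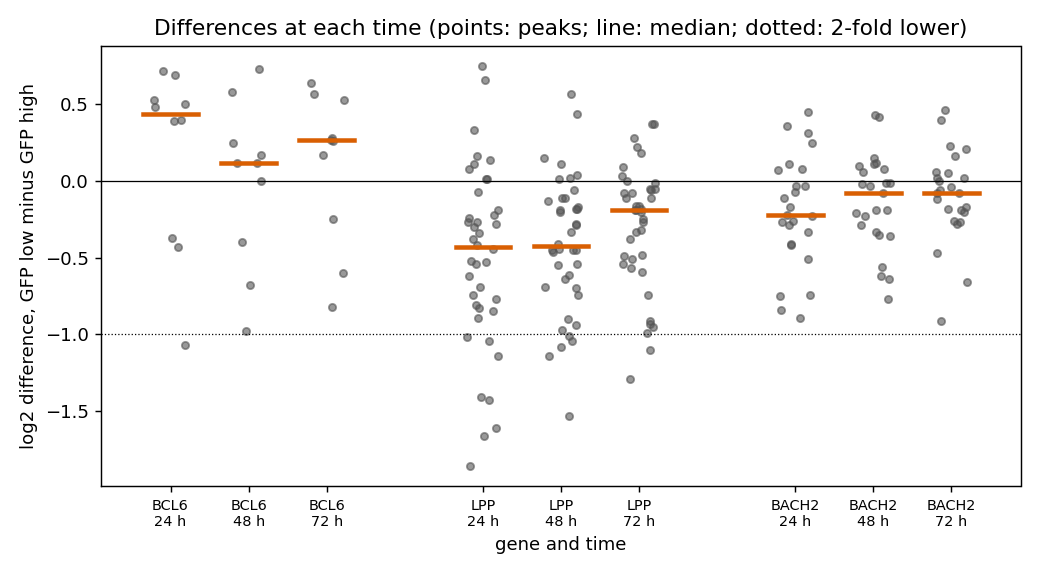
Log2 difference between GFP low and GFP high (y axis) of each peak of BCL6, LPP and BACH2 at 24, 48 and 72 h (x axis), with 1 point per peak, a line at the median and a dotted line at 2-fold lower. The LPP median goes from -0.43 at 24 h to -0.19 at 72 h, and the points under the dotted line at LPP number 8, 5 and 2.

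Summed over all its peaks, LPP held 463, 504 and 506 CPM in GFP high and 372, 410 and 445 in GFP low. The means were 491 ± 24.2 and 409 ± 36.7 (SD over times, n = 3), a log2 difference of -0.26, and the groups did not overlap. BACH2 held 523, 517 and 514 CPM against 496, 491 and 489, with means of 518 ± 4.33 and 492 ± 3.43 (SD, n = 3). That log2 difference was -0.07, again without overlap. It is smaller in size than 0.089, the median shift of all peaks with loess scaling, which was not applied to these totals. How often the totals of other genes do not overlap was not counted. BCL6 held 156, 181 and 185 CPM against 187, 185 and 207, with means of 174 ± 15.4 and 193 ± 12.3 (SD, n = 3) so that the groups met at 185. All peaks are of the same width, so per peak the order in GFP high was BACH2 at 20.7 ± 0.173 CPM, BCL6 at 17.4 ± 1.54 and LPP at 12.3 ± 0.606. In GFP low BACH2, at 19.7 ± 0.137 CPM, and BCL6, at 19.3 ± 1.23, did not differ beyond their spread, and LPP was lowest at 10.2 ± 0.916 (SD over times, n = 3).

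Among 4125 genes with at least 5 peaks, those whose summed log2 CPM most nearly followed each locus over the 6 libraries were found by the root mean square difference after centring. For BCL6 they included CD69 (0.017) and TOLLIP (0.019). For LPP they included SH3BP2 (0.027) and RNF144B (0.030). For BACH2 they were PTPRJ (0.013), PPP2R5E (0.016) and EIPR1 (0.019).

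The 50 kb limit left peaks of the same kind on both sides. Just beyond it, peaks 52.8 kb upstream of BCL6 (-0.90 ± 0.24), 50.6 kb past LPP (chr3:188941010-188941510) and 54.0 kb upstream of BACH2 (chr6:90350597-90351097, -0.51) were lower too, with edgeR adjusted p = 0.00446, 2.76e-05 and 3.04e-04. The first of these calls was lost without the 72 h pair (-0.83). Between BACH2 and the next gene, MAP3K7, 15 peaks had no gene within the limit. Of these, 6 were lower (40%) and 0 higher, against 30.6% and 8.96% of all intergenic peaks.

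The genes of the same pathway gave mixed calls. Among 11 corepressors of BCL6, 10 had a peak, and 15 of their 88 peaks were lower (17.0%) and 10 higher (11.4%), with a median log2 change of -0.01. Of all peaks 25.4% were lower and 13.4% higher, with a median of 0.03. Only lower calls were made at 1 of these genes, only higher at 1, both at 5 and neither at 3. A peak inside MTA3, of the NuRD deacetylase complex, held 66.5, 64.9 and 63.8 CPM in GFP high and 48.2, 48.3 and 48.6 in GFP low (-0.43 ± 0.07, edgeR adjusted p = 3.00e-05). At TBL1XR1, of the NCOR complex, 3 of 15 peaks were lower and 1 higher. The higher one, inside the gene, rose by 0.57 ± 0.14 (edgeR adjusted p = 0.00216).

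For BACH partners and relatives, 7 of 7 genes had a peak. Of 37 peaks 6 were lower (16.2%, against 25.4% of all peaks) and 4 higher (10.8%, against 13.4%), with a median of 0.04. All calls lay at BACH1, NFE2L2 and NFE2L3, each with both directions, and none at the small MAF genes MAFF, MAFG and MAFK or at NFE2L1. A peak 24.6 kb outside NFE2L3 had a log2 change of -1.10 ± 0.15 (edgeR adjusted p = 6.07e-06). At NFE2L2, the gene of the antioxidant activator NRF2, a peak 16.9 kb outside fell (-0.85 ± 0.12, adjusted p = 1.19e-05) and a gene-end peak rose (0.29 ± 0.07, adjusted p = 0.00311). The gene-end peak of BACH1 rose by 0.26 ± 0.08 (adjusted p = 0.0174). Both gene-end calls were lost with loess scaling (0.12 at NFE2L2 and 0.14 at BACH1) and without the 72 h pair (0.22 and 0.31), and that of BACH1 also with DESeq2 (adjusted p = 0.0525) and without the 48 h pair (0.25).

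Genes known to be repressed by BCL6 or BACH2 had a peak at 19 of 20. Of 130 peaks 46 were lower (35.4%, against 25.4% of all peaks) and 19 higher (14.6%, against 13.4%), with a median log2 change of -0.09. Only lower calls were made at 7 of the genes, only higher at 6, both at 4 and neither at 2. PRDM1 had 6 of 10 peaks lower, and the one with the smallest p, 32 kb outside, held 39.5, 32.9 and 26.4 CPM in GFP high and 18.4, 18.3 and 15.3 in GFP low (-0.91 ± 0.10, edgeR adjusted p = 6.93e-07). IRF4, a plasma cell and activation factor, had 5 of 9 lower, and CDKN1A, the gene of the cell cycle inhibitor p21, had 5 of 8, each with 0 higher. The survival gene BCL2 had 10 of 24 lower and 4 higher, with a peak inside it at -0.86 ± 0.12 (adjusted p = 7.66e-06). ID2, an inhibitor of E proteins, had 4 of 5 peaks higher, among them a gene-end peak at 0.31 ± 0.07 (adjusted p = 0.00110), a call lost with loess scaling (0.13). BCL2L1, the gene of BCL-XL, had 8 of 16 peaks lower and 2 higher. Its gene-end peak stood at 0.23 ± 0.05 (edgeR adjusted p = 4.16e-04) and turned to -0.09 with loess scaling, where it was not called (adjusted p = 0.278). Accessibility does not measure transcription, so these counts say nothing of the level of the genes.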

How the data were processed

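Omni-ATAC-seq of Raji cells gave 1 deposited table of read counts, not normalised by the authors, for 71318 peaks and 18 columns. FastQC, BWA, deepTools, R 4.2.1 and hg38 are named per the submitters' processing notes. Which peak caller was used, whether duplicates stayed in and whether reads were shifted is not given in the sources used here. Duplicates left in would add noise to each count. D1, D2 and D3 in the headers were read as 24, 48 and 72 h. Columns held 7106939 to 11171849 counts. Squared differences were 1.78 to 1.82 times the counting variance within a group, 2.21 to 3.47 between times and 4.49 to 7.28 between GFP levels, so the 3 columns of a group were summed. V numbers in the headers were not matched to replicate numbers. Same-V columns correlated at -0.00521 to 0.0176 in their deviations from group means, and columns of other V numbers at -0.0145 to 0.0105. These deviations are close to a constant multiple of counting noise, so the check cannot tell whether the numbers pair samples.

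The test was edgeR 4.0.16, run under R 4.3.3 (quasi-likelihood, robust, scaled by TMM, with time and GFP level in the model, 2 residual and a median of 22.6 prior degrees of freedom, Benjamini-Hochberg at 0.05 over all peaks). The p-values rest largely on spread borrowed from other peaks. The coefficient of variation was 9.48%, and the low-count filter removed 0 peaks. CPM are counts scaled to the TMM library size, with 2 as the prior count for log2 differences at single times. Counting intervals are at 95% with the variance multiplied by 1.799. Genes were 19961 protein-coding genes of a RefSeq table, without 95 readthrough genes, which gave 59536 peaks a gene. Exons, introns and UTRs were not separated. Motifs were searched in RefSeq promoter windows, since no genome was used. On simulated data with 71318 peaks the fit called 60 of 100 simulated 1.5-fold changes, 99 of 100 simulated 2-fold changes and 13 unchanged peaks. Real calls, far more numerous, have no error rate from it.

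Members and lists were chosen with earlier results of these data known. Named were all gene-end peaks, the strongest peak of each gene, the 6 most negative and 3 most positive called peaks with a mean count of at least 30, those with the smallest p for time and for the change of contrast, the strongest and the 3 most extreme of each direction between BCL6 and LPP, and up to 2 peaks of each direction per pathway list. A few further peaks were chosen after their values were seen. They are the LPP start, those beside MIR28, and the BACH2 peaks 11.0 kb inside and 7.7 kb upstream. Others are peaks of the group 83 to 92 kb inside LPP, a peak outside LPP, the BCL6 body and the edges of the 50 kb limit. Alternatives were other scalings, filters, DESeq2 1.42.0, libraries or columns left out, 18 columns as replicates, and other rules for assigning peaks. Some results that the naming rule would give are not reported here.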

Additional observations from a re-analysis of the deposited data

How the results depend on the processing

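Lower calls were steadier than higher ones. In all 14 alternative fits, 2 lower and 2 higher calls were kept at BCL6, 14 lower and 0 higher at LPP, and 5 lower and 0 higher at BACH2. Of the 34 peaks named by the rule, 17 of 19 lower and 2 of 10 higher calls held under all 12 alternatives run on them. Members called higher came to 5 with loess scaling, 4 with DESeq2 and 13 with 18 columns as replicates, and lower calls to 19 and higher to 4 with peaks inside genes only. Peaks inside genes only gave 0 lower and 2 higher at BCL6 and 1 higher at BACH2. A limit of 10 kb gave 0 lower at BCL6 and 19 lower in all. LPP had 0 higher with library totals or DESeq2. BACH2 had 1 higher with library totals and 0 with loess scaling or DESeq2. With loess scaling, falls of at least 2-fold came to 3 at 48 h and 1 at 72 h, lower calls at 72 h against 24 h to 2, and the peak at 187901927 between BCL6 and LPP to -0.17. Loess scaling shifted the log2 changes of all peaks by a median of 0.089.

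Leaving out 1 pair of libraries or 1 column per group gave 2 to 3 lower and 2 to 6 higher calls at BCL6, 16 to 18 and 0 to 2 at LPP, 5 to 6 and 0 to 2 at BACH2, and 23 to 26 and 2 to 10 over members. Without the 72 h pair 2 members were higher, and of all called peaks 15.7% were higher, against 34.6% with it, 22.5% with DESeq2 and 47.9% with 18 columns. Between BCL6 and LPP 9 to 12 were lower and 0 to 6 higher, with 0 without the 72 h pair. Falls of at least 2-fold came to 7 to 12 at 24 h, 5 at 48 h and 3 at 72 h without 1 column per group.

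With 18 columns and a replicate block by V number, and likewise with no block, 2 peaks were higher at LPP, 4 at BACH2 and 13 in all. In both fits 17 members were higher and 6 lower at 72 h than at 24 h, and the contrast changed with hours at 1. Whether the numbers pair the samples is not known, so these counts concern columns. Peaks of a few CPM limit the precision, and their SE reached 0.25.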
